A study of Mus musculus with 24 samples.

Results

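A set of 10 genes of interleukin-6 (IL-6) family signalling and the acute phase response were followed in mouse heart over 1 day. They were listed by name, with earlier results of these data known. The set comprises 4 receptor genes (Il6ra, Il6st, Osmr, Lifr), 3 transcription factor genes (Stat3, Cebpb, Cebpd), the inhibitor gene Socs3 and the acute phase genes Serpina3n and Lcn2. All 10 were measured, among 22180 genes in all, each by probe sets that the platform annotation gives to that gene only. Socs3 had 2 probe sets, which were averaged, and each of the others had 1. The hearts came from wild-type C57Bl/6 males aged 8 weeks under 12 h of light and 12 h of darkness per day. They were taken at 6 zeitgeber times (ZT, h after lights-on), with ZT03, ZT07 and ZT11 before lights-off and ZT15, ZT19 and ZT23 after it. There were 4 arrays per time, 24 in all, named in the labels as biological replicates, and no sample was treated. Whether each array came from 1 mouse or from a pool is not given in the sources used here.

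Most IL-6 family cytokines bind receptor chains that differ between ligands, together with the shared signalling chain gp130, which Il6st encodes. The receptor complex activates JAK kinases, which phosphorylate STAT3, and STAT3 enters the nucleus and drives its targets. Socs3 is one of these targets and shuts the receptor off again, while C/EBP-beta and C/EBP-delta, encoded by Cebpb and Cebpd, act with STAT3 on acute phase genes. In the heart, signalling through gp130 is known for promoting cardiomyocyte survival and growth under stress. STAT3 and the receptors are controlled to a large extent at the protein level, which RNA measurements do not show.

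Each value is a log2 difference from the median of its gene over the 24 arrays, so no expression level is kept. Genes therefore cannot be ranked by abundance, and the labelled tissue could not be checked against the levels of its marker genes. Over its probe sets, an array had an SD of 0.103 to 0.171. Weights estimated from the arrays' spread were lowest for ZT15 replicate 1 (0.498), ZT23 replicate 4 (0.573) and ZT07 replicate 4 (0.64), which stood apart from the rest. In limma's test of a 24-h rhythm, 7 of the 10 members were called with all arrays and 6 without these 3. Of all 22180 genes 7.61% were called (1688 genes). The labels give no batch, so a batch shared by the arrays of a time could not be told apart from the time itself.

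The rhythms of 4 members stayed called without any 1 of the 24 arrays: Stat3, Cebpb, Lcn2 and Serpina3n. Their fitted peaks did not all fall at the same time of day, and no test compared peak times. Stat3 peaked in the middle of the light phase, at ZT 6.92 ± 0.596 (SE, in h). Cebpb followed around lights-off, at ZT 12.5 ± 0.553. Lcn2 and Serpina3n peaked in the middle of the dark phase, at ZT 18.8 ± 0.731 and ZT 19.4 ± 0.678. The fitted change from trough to peak was 1.24-fold for Stat3, 1.39-fold for Cebpb, 1.47-fold for Lcn2 and 1.46-fold for Serpina3n. The receptor genes Il6ra, Osmr and Lifr were called with smaller amplitudes and calls that depended on single arrays, and Il6st, Cebpd and Socs3 were not called. The median amplitude, which is the fitted peak minus the mean in log2 units, was 0.122 over the 10 members and 0.04 over all genes. As the members were chosen with earlier results of these data known, their counts and median describe the set and do not test it. Dim genes could not be left out of the figures for all genes.

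**Figure D1:**
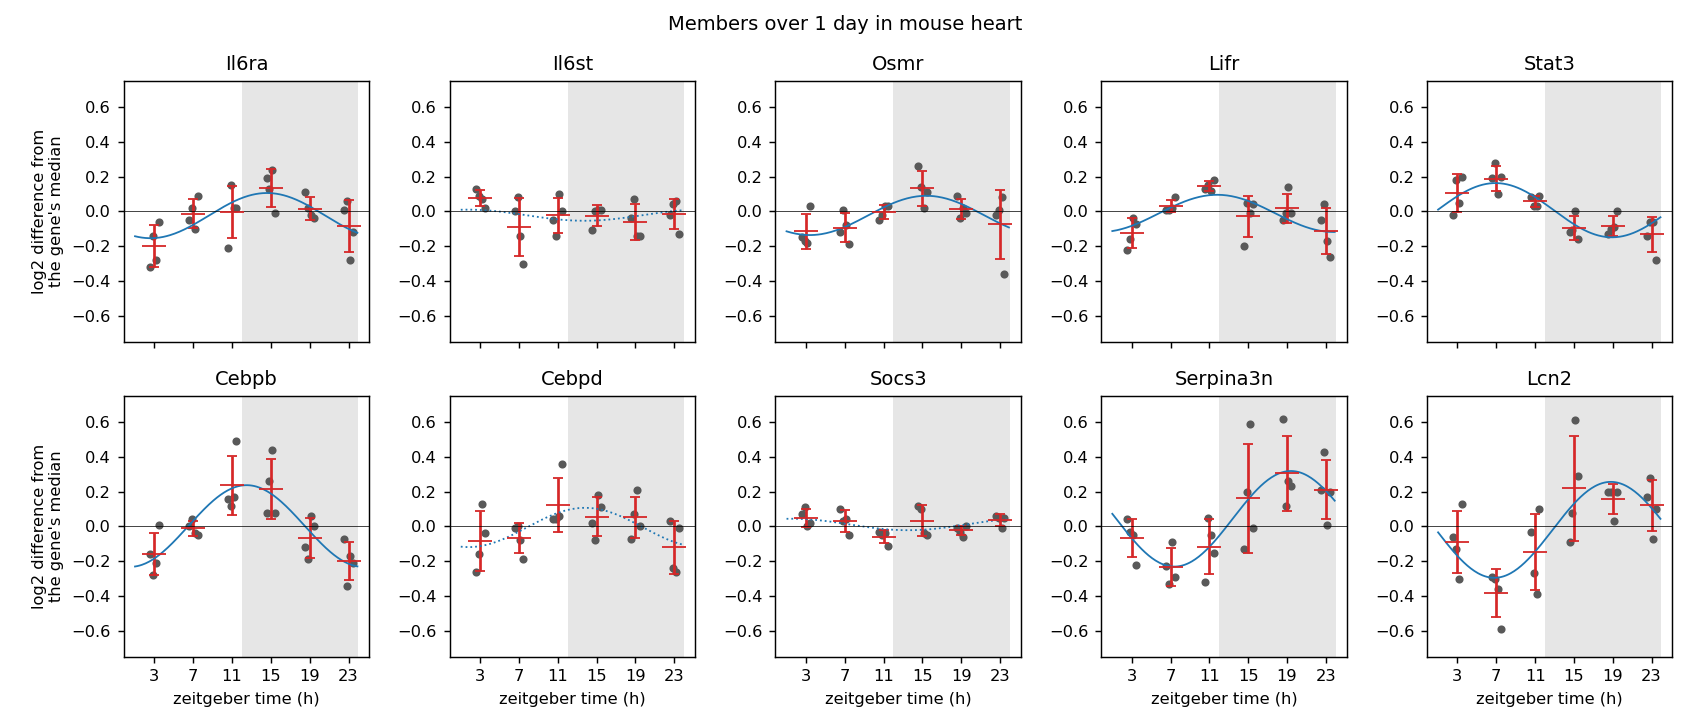
Log2 difference from the gene's median (vertical axis) against zeitgeber time in h (horizontal axis) for the 10 members, with the dark phase in grey. Points are single arrays, red bars the mean ± SD of 4 arrays, and blue lines the 24-h fit, solid where called and dotted where not. Stat3 is highest at ZT07, Cebpb at ZT11 and ZT15, and Serpina3n and Lcn2 are lowest at ZT07 and high in the dark. Il6st and Socs3 have the flattest fits (amplitudes 0.032 and 0.033).

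Il6ra encodes the receptor subunit that binds IL-6 itself. Its values in replicates 1 to 4 were -0.32, -0.14, -0.28 and -0.06 at ZT03, and 0.19, 0.13, 0.24 and -0.01 at ZT15. Every ZT03 array lay below every ZT15 array, and the means were -0.20 ± 0.12 and 0.14 ± 0.11 (SD, n = 4). The other 4 times lay between, with means from -0.08 to 0.02. Of these, ZT07, ZT11 and ZT23 overlapped both extremes, and ZT19 overlapped ZT15 only. The 24-h fit gave an amplitude of 0.13 ± 0.0327 (SE) with a peak at ZT 14.6 (adjusted p = 0.0354). Dusk (ZT11 and ZT15) exceeded dawn (ZT23 and ZT03) by 0.206 ± 0.056 (adjusted p = 0.0398), with 6 of 8 dusk arrays and 2 of 8 dawn arrays above 0. The rhythm call was lost without any of 9 arrays, namely ZT03 replicates 1, 2 and 3, ZT11 replicate 2, ZT15 replicates 1, 2 and 3, ZT19 replicate 1 and ZT23 replicate 3 (adjusted p up to 0.0865), and without the 3 arrays of low weight together (adjusted p = 0.0615). The dusk call was lost without any of 11 arrays, namely ZT03 replicates 1 and 3, ZT11 replicates 2, 3 and 4, ZT15 replicates 1, 2 and 3, ZT19 replicate 2, and ZT23 replicates 3 and 4 (adjusted p up to 0.0966), and without the 3 arrays of low weight (adjusted p = 0.122).

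Osmr encodes the oncostatin M receptor, which pairs with gp130. It had -0.15, -0.17, -0.18 and 0.03 at ZT03, and 0.26, 0.14, 0.02 and 0.11 at ZT15, where its mean of 0.13 ± 0.10 (SD, n = 4) was the highest of the 6 times. These ranges overlapped slightly, through ZT03 replicate 4 and ZT15 replicate 3. The amplitude was 0.113 ± 0.0292 (SE) with a peak at ZT 15.4 (adjusted p = 0.0417). Night minus day was 0.096 (95% interval 0.007 to 0.184, adjusted p = 0.255) and dusk minus dawn 0.159 (0.05 to 0.267, adjusted p = 0.112), neither of them called. The rhythm call was lost without any of 13 arrays (adjusted p up to 0.0931), which were ZT03 replicates 1, 2 and 3, ZT07 replicates 1, 3 and 4, ZT11 replicates 3 and 4, ZT15 replicates 1, 2 and 4, and ZT19 replicates 1 and 3. The lowest Osmr value of all, -0.36, came from ZT23 replicate 4, and without that array night exceeded day (adjusted p = 0.0249).

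Lifr encodes the receptor for leukaemia inhibitory factor, another partner of gp130. Its 4 arrays at ZT11 had 0.13, 0.15, 0.12 and 0.18, the narrowest spread of any time for this gene (SD 0.026). At ZT03 it had -0.22, -0.16, -0.04 and -0.07, and at ZT23 -0.05, 0.04, -0.17 and -0.26. All ZT11 arrays were therefore above all arrays of both dawn times, and above those of ZT07 and ZT15 as well. Dusk exceeded dawn by 0.176 ± 0.0436 (SE, 1.13-fold, adjusted p = 0.0217). That call was lost without ZT03 replicate 1, ZT15 replicate 2 or ZT23 replicate 3 (adjusted p up to 0.0553). The 24-h amplitude was 0.107 ± 0.028 with a peak at ZT 11.8 (adjusted p = 0.0466). The rhythm stayed called only without ZT15 replicate 1, ZT15 replicate 3, ZT19 replicate 3 or ZT23 replicate 2, and was lost without any of the other 20 arrays (adjusted p up to 0.103) and when each array was centred on its median (adjusted p = 0.0515).

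Il6st, the gene of gp130, was not called in any of the 4 tests. Its time means ran from -0.09 at ZT07 to 0.08 at ZT03, and its single arrays from -0.30 to 0.13. At ZT03 all 4 arrays were above 0 (0.13, 0.09, 0.07 and 0.02), whereas each of the other times had arrays on both sides of 0. Night minus day was -0.021 (95% interval -0.104 to 0.062, adjusted p = 0.868), and dusk minus dawn was -0.055 (-0.156 to 0.047, adjusted p = 0.721). The amplitude of 0.032 ± 0.0296 (SE) was about as large as its error (adjusted p = 0.827). With 24 arrays the bound on a lower value at dusk is therefore -0.156.

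Of the transcription factor genes, Stat3 was higher in the light than in the dark. In the light, replicates 1 to 4 had -0.02, 0.18, 0.05 and 0.20 at ZT03, then 0.19, 0.28, 0.10 and 0.20 at ZT07, then 0.08, 0.03, 0.03 and 0.09 at ZT11. The dark arrays had -0.12, -0.11, 0.00 and -0.16 at ZT15, then -0.13, -0.10, -0.09 and 0.00 at ZT19, then -0.14, -0.06, -0.06 and -0.28 at ZT23. Of the 12 light-phase arrays 11 were above 0, against 1 of 12 in the dark, and only ZT03 replicate 1 fell within the range of the dark arrays. The means at the 3 dark times, -0.10 ± 0.07, -0.08 ± 0.06 and -0.13 ± 0.10 (SD, n = 4), did not differ beyond their spread. All ZT07 arrays lay above all arrays of ZT11, whereas ZT03 overlapped both.

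Stat3 was lower at night by 0.221 ± 0.0318 (SE, 12 arrays against 12, 1.17-fold, adjusted p = 0.000201). Of the 10 members, 3 differed between night and day, beside 4.39% of all genes, and Stat3 was the one called lower, beside 2.49% of all genes. The 24-h amplitude was 0.156 ± 0.0243 (adjusted p = 0.00043), and the test for any difference among the 6 times called it as well (adjusted p = 0.00199). Dusk minus dawn was not called (-0.005, 95% interval -0.086 to 0.076, adjusted p = 0.977). Without any 1 array the night minus day difference stayed between -0.235 and -0.205 and remained called. Of 10 markers of ventricular cardiomyocytes, 3 (Ttn, Ryr2 and Mybpc3) were called for a rhythm, beside 7.61% of all genes. They peaked at ZT 5.72, ZT 5.53 and ZT 8.2, and the same 3 were called lower at night (night minus day -0.103, -0.111 and -0.24). Of 10 fibroblast markers, 2 were called lower at night: Col3a1 (-0.319, peak at ZT 6.24) and Col1a1 (-0.271, peak at ZT 6.29). Dcn, also a fibroblast marker, was called higher at night (0.187). The mean of the 10 ventricular markers lay between -0.05 and 0.09 (median 0.04) on light arrays and between -0.09 and 0.01 (median -0.06) on dark arrays. The part of either cell type in the Stat3 difference was not tested. As these are whole-tissue samples, fewer cells that express a gene and less RNA per cell cannot be told apart, here or for any other member.

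Cebpb, which encodes C/EBP-beta, was highest on either side of lights-off. It had 0.16, 0.12, 0.17 and 0.49 at ZT11 and 0.08, 0.26, 0.44 and 0.08 at ZT15. On either side of lights-on it had -0.07, -0.34, -0.17 and -0.21 at ZT23, and -0.16, -0.28, -0.21 and 0.01 at ZT03. All 8 dusk arrays were above all 8 dawn arrays. ZT07 (mean -0.01 ± 0.04, SD, n = 4) and ZT19 (-0.07 ± 0.11) stood between and overlapped with each other and with ZT03, and ZT19 also with ZT23. The mean at ZT11, 0.24 ± 0.17, and that at ZT15, 0.22 ± 0.17, did not differ beyond their spread.

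Dusk exceeded dawn by 0.405 ± 0.0611 for Cebpb (SE, 8 arrays against 8, 1.32-fold, adjusted p = 0.00019), the largest difference of the 10 members in this comparison. In limma's test 3 of the 10 were called, beside 3.76% of all genes. All 3, Cebpb, Il6ra and Lifr, were higher at dusk (2.06% of all genes), and 0 members were called lower (1.7% of all genes), also at an unadjusted p below 0.05. Night minus day was not called (-0.038, 95% interval -0.141 to 0.066, adjusted p = 0.804). The 24-h amplitude was 0.235 ± 0.0341 (adjusted p = 0.000189). The highest array of all, ZT11 replicate 4 (0.49), was not needed for the call, since without any 1 array the dusk minus dawn difference stayed between 0.363 and 0.433.

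Cebpd, which encodes C/EBP-delta, was not called in any of the 4 tests. Its values were 0.04, 0.04, 0.06 and 0.36 at ZT11, 0.02, -0.08, 0.18 and 0.11 at ZT15, and 0.03, -0.24, -0.26 and -0.01 at ZT23. ZT11 replicate 4 was the highest array for Cebpd as it was for Cebpb. Dusk minus dawn was 0.192 (95% interval 0.058 to 0.326, adjusted p = 0.122), and the amplitude was 0.113 ± 0.0366 (SE) with a fitted peak at ZT 13.8 (adjusted p = 0.136). Both passed narrowly without ZT03 replicate 3, whose value of 0.13 stood above the other ZT03 arrays. The adjusted p was then 0.0448 for dusk against dawn and 0.047 for the 24-h rhythm. Without any other single array neither passed, with adjusted p up to 0.259 for dusk against dawn and 0.255 for the rhythm. No test compared Cebpd with Cebpb directly.

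**Figure D2:**
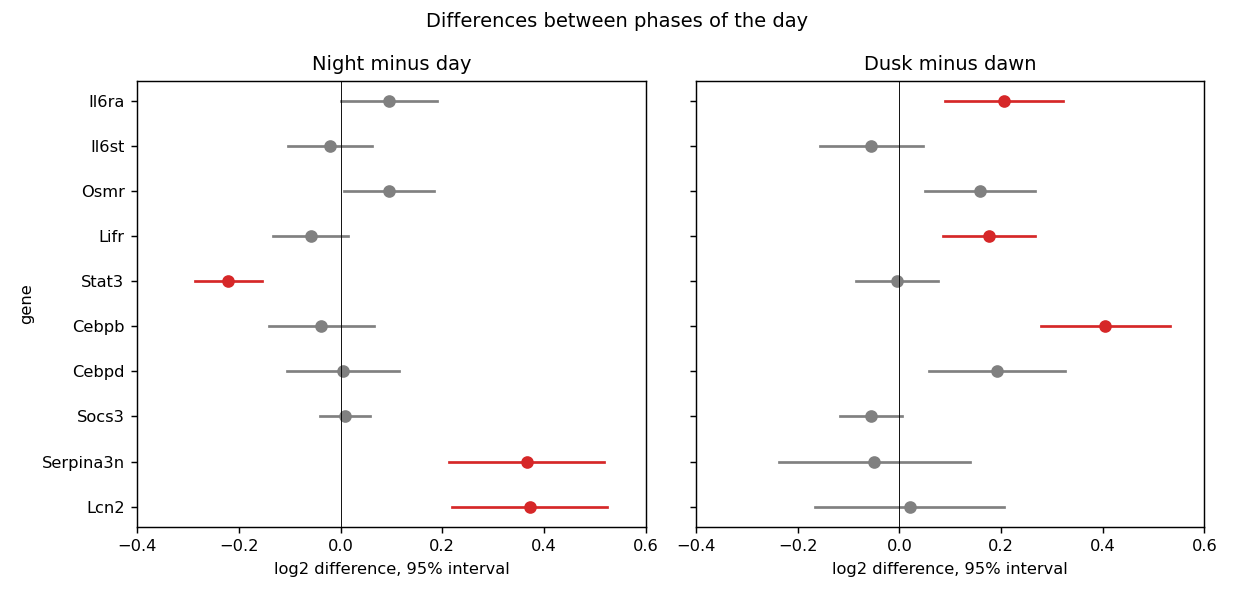
Log2 difference and 95% interval (horizontal axes) for each member, night minus day on the left and dusk minus dawn on the right, with called differences in red. Stat3 lies below 0 and Serpina3n and Lcn2 above 0 on the left, and Cebpb lies farthest above 0 on the right.

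Socs3, the feedback inhibitor that STAT3 induces, was not called in any of the 4 tests. Averaged over its 2 probe sets, its arrays ran from -0.11 to 0.12 and its time means from -0.06 at ZT11 to 0.05 at ZT03. At ZT11 it had -0.03, -0.05, -0.04 and -0.11, and at ZT03 0.07, 0.11, 0.00 and 0.02, so these times did not overlap. Night minus day was 0.009 (95% interval -0.041 to 0.058, adjusted p = 0.919), and dusk minus dawn -0.056 (-0.117 to 0.005, adjusted p = 0.414). The probe sets correlated weakly over the 24 arrays (r = 0.211). The first ran from -0.18 to 0.23 and the other from -0.06 to 0.12, and neither was called for a 24-h rhythm (adjusted p = 0.28 and adjusted p = 0.939).

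Serpina3n encodes a secreted serine protease inhibitor, and Lcn2 encodes lipocalin-2, which binds bacterial iron carriers. Both are classical acute phase genes downstream of STAT3 and C/EBP factors, and glucocorticoids are known to raise them in several tissues. Their promoters are shown because these members moved together at night. That of Socs3 is shown because it holds the only STAT match among the member promoters searched. No promoter of Cebpd was available, so it was not searched. The sequences are from RefSeq (GRCm38.p6), which holds 10 promoters for 9 of the 10 members, and run 5′ to 3′ on the gene's strand from 250 bases before the start site to 50 after it. Serpina3n lies at chr12:104406458-104406757 on the plus strand, Lcn2 at chr2:32387690-32387989 on the minus strand, and Socs3 at chr11:117969317-117969616 on the minus strand. Capitals mark every match to the motifs searched.

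Serpina3n: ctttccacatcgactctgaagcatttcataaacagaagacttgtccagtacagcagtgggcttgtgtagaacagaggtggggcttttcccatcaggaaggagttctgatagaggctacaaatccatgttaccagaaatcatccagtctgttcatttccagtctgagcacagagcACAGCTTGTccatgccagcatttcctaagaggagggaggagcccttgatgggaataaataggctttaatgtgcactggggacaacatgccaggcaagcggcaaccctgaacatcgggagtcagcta
Lcn2: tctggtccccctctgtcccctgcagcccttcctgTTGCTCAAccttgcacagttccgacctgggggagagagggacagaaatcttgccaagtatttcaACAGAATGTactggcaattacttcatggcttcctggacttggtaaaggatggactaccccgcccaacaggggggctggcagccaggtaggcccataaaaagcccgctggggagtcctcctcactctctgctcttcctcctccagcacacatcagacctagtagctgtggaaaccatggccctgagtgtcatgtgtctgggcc
Socs3: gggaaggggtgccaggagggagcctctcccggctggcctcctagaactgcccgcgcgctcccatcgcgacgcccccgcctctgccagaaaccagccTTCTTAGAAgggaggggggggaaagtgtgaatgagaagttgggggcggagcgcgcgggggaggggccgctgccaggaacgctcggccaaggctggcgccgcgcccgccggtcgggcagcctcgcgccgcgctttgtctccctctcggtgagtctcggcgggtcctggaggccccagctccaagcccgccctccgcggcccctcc

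A total of 5 motifs were searched on both strands: STAT (TTCNNNGAA), C/EBP (TTNNGCAA), E-box (CACGTG), D-box (TTANGTAA) and the core of the glucocorticoid receptor site (ACANNNTGT). The Serpina3n and Lcn2 promoters each held 1 match to the glucocorticoid receptor core, 76 and 152 bases before the start site, a motif found in 6.85% of all 32851 promoters. Lcn2 also held a C/EBP match (10.8% of all promoters) that began 216 bases before the start site, and Socs3 a STAT match (8.3%) at 154 bases. The other match among the 10 promoters was an E-box of Il6ra (7.15%), 24 bases before the start site, and 0 of them held a D-box (2.32%). No 2 of these matches overlapped. The search covers these windows only. A match describes the letters only, and no binding was measured.

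Serpina3n had 0.04, -0.03, -0.05 and -0.22 at ZT03, -0.23, -0.33, -0.09 and -0.29 at ZT07, and -0.32, 0.05, -0.05 and -0.15 at ZT11. In the dark it had -0.13, 0.20, 0.59 and -0.01 at ZT15, 0.62, 0.12, 0.26 and 0.23 at ZT19, and 0.21, 0.43, 0.01 and 0.20 at ZT23. All arrays of ZT19 lay above all arrays of the 3 light times, while ZT15 was spread widely (SD 0.314) and overlapped all other times. In the dark 10 of 12 arrays were above 0, and in the light 2 of 12. The mean was lowest at ZT07, -0.23 ± 0.11, and highest at ZT19, 0.31 ± 0.22 (SD, n = 4), and the 3 dark means did not differ beyond their spread.

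Lcn2 had -0.06, -0.13, -0.30 and 0.13 at ZT03, -0.29, -0.30, -0.36 and -0.59 at ZT07, and -0.03, -0.27, -0.39 and 0.10 at ZT11. In the dark it had -0.09, 0.08, 0.61 and 0.29 at ZT15, 0.20, 0.20, 0.03 and 0.20 at ZT19, and 0.17, 0.28, -0.07 and 0.10 at ZT23. ZT07 was low in all 4 arrays, with a mean of -0.38 ± 0.14 (SD, n = 4), and did not overlap with any dark time. Of the dark arrays 10 of 12 were above 0, and of the light arrays 2 of 12. ZT15 replicate 3 held the highest Lcn2 value and the highest Serpina3n value of its time.

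Night exceeded day by 0.366 ± 0.0735 for Serpina3n (SE, 12 arrays against 12, 1.29-fold, adjusted p = 0.00464) and by 0.372 ± 0.0731 for Lcn2 (1.29-fold, adjusted p = 0.00383). They were the only members called higher at night, where 1.89% of all genes were called higher. Both stayed called without any 1 array, with differences from 0.319 to 0.398 for Serpina3n and from 0.329 to 0.406 for Lcn2. The 24-h amplitudes were 0.275 ± 0.0487 (adjusted p = 0.00181) and 0.276 ± 0.0528 (adjusted p = 0.00397), and dusk minus dawn was not called in either (-0.049 with adjusted p = 0.894, and 0.02 with adjusted p = 0.963). In the test for any difference among the 6 times, 4 of 10 members were called (Stat3, Cebpb, Lcn2 and Serpina3n), against 4.72% of all genes. In that test Serpina3n (adjusted p = 0.0436) lost its call on leaving out any of 17 arrays (adjusted p up to 0.0905), which were all but ZT07 replicate 3, ZT11 replicate 2, ZT15 replicates 1, 3 and 4, ZT19 replicate 2 and ZT23 replicate 3, and Lcn2 (adjusted p = 0.0243) without ZT07 replicate 3 or ZT07 replicate 4 (adjusted p up to 0.0717). Mouse has several near-identical serpin A3 genes, and the 4 measured here (Serpina3a, Serpina3b, Serpina3i and Serpina3j) had 0 calls in any of limma's tests, also at an unadjusted p below 0.05, with Serpina3j (adjusted p = 0.678) and Serpina3b (adjusted p = 0.701) closest to a rhythm. The other listed copies, Serpina3c, Serpina3f, Serpina3g, Serpina3h, Serpina3k and Serpina3m, were not measured, as none had a probe set naming it alone. How far the Serpina3n probe set reads the other copies was not tested.

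Markers of other cell types were set beside these genes, since neutrophils and macrophages are known to express Lcn2, and hepatocytes to secrete both proteins. The 12 macrophage markers had 8 called for a 24-h rhythm (7.61% of all genes), 5 called higher at night (1.89%) and 0 called lower. The called rhythms did not share a phase. Cx3cr1 peaked at ZT 2.79, with a night minus day of -0.154 that was not called (adjusted p = 0.288), and was called lower at dusk. Cd163 peaked at ZT 12.8 with a night minus day of -0.013. The mean of the 12 macrophage markers per array lay between -0.25 and 0.04 (median -0.08) in the light. In the dark it lay between -0.07 and 0.21 (median 0.09). It was lowest in ZT07 replicate 4 (-0.254), 1 of the 3 arrays of low weight, which also held the lowest Lcn2 value. It was highest in ZT15 replicate 3 (0.208), which held the highest Lcn2 value. The Serpina3n extremes lay on other arrays: the highest, 0.62, in ZT19 replicate 1 (marker mean 0.127) and the lowest, -0.33, in ZT07 replicate 2 (-0.071). The part of macrophage RNA in the rise of Serpina3n and Lcn2 was not tested. Of the other lists, neutrophil markers (12) and hepatocyte markers (8) had 0 called in limma's rhythm test (1 and 0 at an unadjusted p below 0.05), and their means per array stayed between -0.10 and 0.07. Since all values are centred, whether any marker was near 0 in level cannot be said. Platelet markers (6 measured) had 3 called for a rhythm (7.61% of all genes), all called higher at night (1.89%). Their means ran from -0.26 to -0.05 in the light and from -0.03 to 1.02 in the dark, highest in ZT15 replicate 1.

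**Figure D3:**
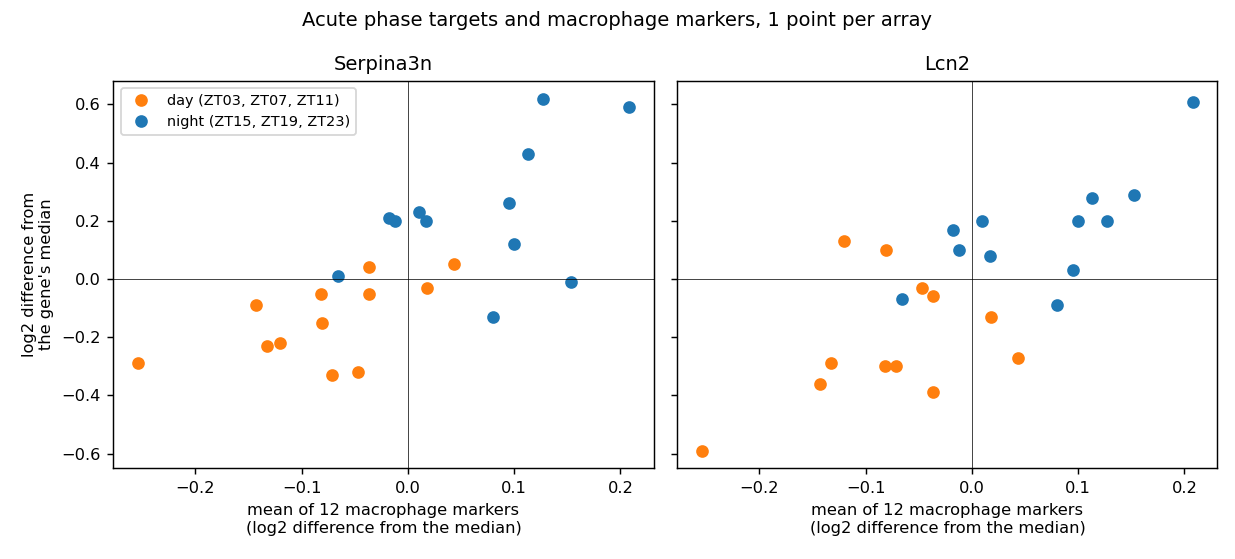
Log2 difference of Serpina3n (left) and Lcn2 (right) from the gene's median (vertical axis) against the mean of 12 macrophage markers on the same scale (horizontal axis), 1 point per array. Night arrays lie mostly to the upper right of day arrays in both panels, and ZT15 replicate 3, at 0.208, is the array farthest to the right.

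The fitted peak times and amplitudes of all 10 members and of the called genes of the wider pathway were placed on 1 scale. Lists of 89 further measured genes held 16 with a called 24-h rhythm, against 7.61% of all genes. Night was called higher in 5 of the 89 (1.89% of all genes) and lower in 3 (2.49% of all genes), and dusk higher in 9 (2.06%) and lower in 2 (1.7%). The counts of lower genes are near those shares. The median amplitude of the 89 genes was 0.055, beside 0.04 for all genes. These lists were also chosen with earlier results of these data known, so their counts and median are a description.

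**Figure D4:**
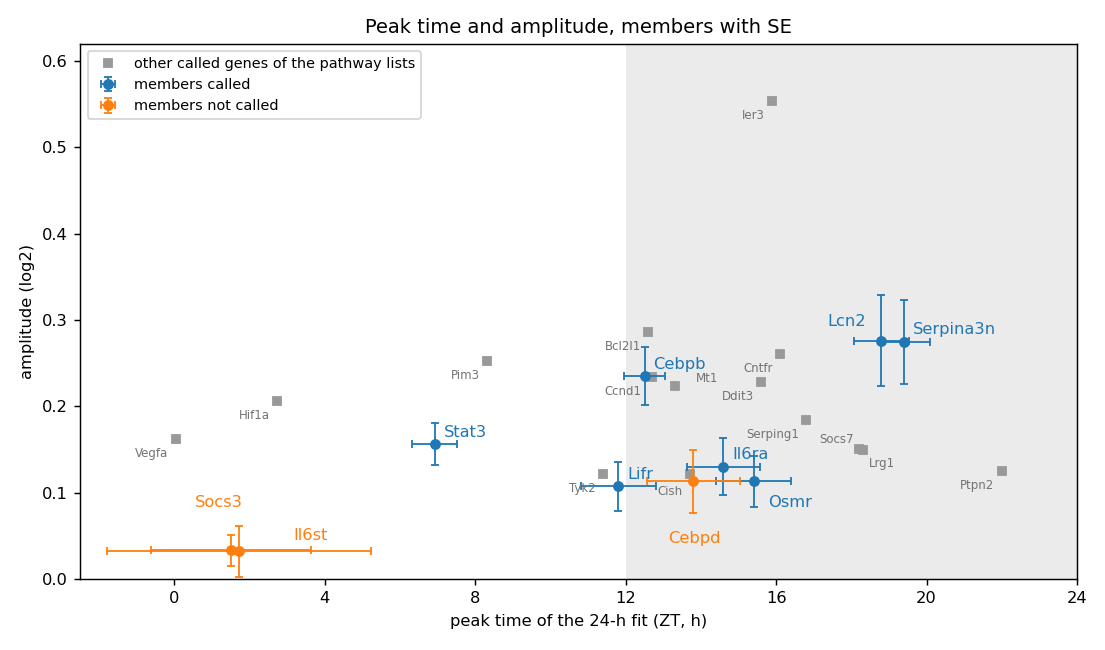
Amplitude of the 24-h fit in log2 units (vertical axis) against its peak time in h (horizontal axis), with the dark phase in grey and SE bars for the members. Called members are blue, members not called orange, and grey squares are other called genes of the pathway lists, without Mt2 (0.878), which lies above the plotted range. Of the called members Stat3 alone peaks before ZT 11.8, and Lcn2 and Serpina3n have the latest peaks of the members.

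No gene of the 10 measured IL-6 family ligands was called in limma's tests of a 24-h rhythm, night against day or dusk against dawn, also at an unadjusted p below 0.05. Osm, which encodes oncostatin M (amplitude 0.044, adjusted p = 0.483), and Ctf1, which encodes cardiotrophin-1 (0.063, adjusted p = 0.607), had the smallest p-values. Of 3 other receptors of the family, Cntfr was called for a rhythm, beside 7.61% of all genes. It encodes the receptor of ciliary neurotrophic factor and changed 1.44-fold with a peak at ZT 16.1 (adjusted p = 0.000589), higher at night by 0.264 (adjusted p = 0.00484). Il31ra (adjusted p = 0.832) and Il27ra (adjusted p = 0.849) were not called.

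Among 8 kinases and other STATs, Tyk2, which encodes a JAK family kinase, was called (1.19-fold, ZT 11.4, adjusted p = 0.0443), a call kept on leaving out ZT07 replicate 4, ZT11 replicate 1, ZT11 replicate 2, ZT03 replicate 4 or ZT19 replicate 4 but no other single array (adjusted p up to 0.0989). Stat2 (amplitude 0.109, adjusted p = 0.167) and Jak2 (0.065, adjusted p = 0.275) came next. Of these 8 genes 1 was called for a rhythm, and of 15 inhibitors of the pathway 3 were called, beside 7.61% of all genes. Ptpn2, a phosphatase that acts on JAKs and STATs, peaked at ZT 22.0 (1.19-fold, adjusted p = 0.0102). The SOCS family genes Cish (1.18-fold, ZT 13.7, adjusted p = 0.0389) and Socs7 (1.23-fold, ZT 18.3, adjusted p = 0.0478) had rhythm calls that also depended on single arrays. Cish lost its call without ZT03 replicates 1 or 3, ZT11 replicates 1 or 3, ZT15 replicates 1, 2 or 3, or ZT23 replicates 1, 2 or 3 (adjusted p up to 0.0868). Socs7 kept its call only without ZT07 replicates 1, 2 or 4, ZT11 replicate 1, ZT15 replicates 1 or 4, or ZT19 replicates 3 or 4 (adjusted p up to 0.105 without another array). Socs7 was also called higher at night, by 0.243 (adjusted p = 0.00258), and this call held without any 1 of the 24 arrays (adjusted p up to 0.00622). Ptpn1 (amplitude 0.098, adjusted p = 0.12) and Socs2 (0.127, adjusted p = 0.148) were not called, but without ZT15 replicate 1 Socs2 had an adjusted p of 0.00521 and without ZT11 replicate 3 Ptpn1 had one of 0.0404.

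Of the 4 other C/EBP family genes, Ddit3, which encodes the stress factor CHOP, was called (1.37-fold, ZT 15.6, adjusted p = 0.00698), whereas Cebpe (amplitude 0.059, adjusted p = 0.31) and Cebpa (0.038, adjusted p = 0.803) were not. Of all genes 7.61% were called for a rhythm, the share to set beside this 1 of 4. Acute phase genes had 4 of 28 called, beside the same share. These were the metallothionein genes Mt2 (3.38-fold), with a peak around lights-off at ZT 12.5 ± 0.497 (SE, in h), and Mt1 (1.37-fold, ZT 13.3), and later in the dark Serping1, which encodes the C1 inhibitor (1.29-fold, ZT 16.8, adjusted p = 0.00153), and Lrg1, which encodes a secreted leucine-rich glycoprotein (1.23-fold, ZT 18.2, adjusted p = 0.0082). Serping1 and Lrg1 were called higher at night, by 0.196 and 0.202, as Serpina3n and Lcn2 were. Lbp, the gene of lipopolysaccharide-binding protein (amplitude 0.119, adjusted p = 0.0522), and Hamp, which encodes the iron regulator hepcidin (0.407, adjusted p = 0.0987), were not called for a rhythm, and the call of Lbp in the test of any difference among times (adjusted p = 0.0472) held on leaving out ZT03 replicate 1, ZT07 replicate 3, ZT11 replicate 3, ZT23 replicate 1 or ZT23 replicate 4 but no other single array (adjusted p up to 0.143). The rhythm of Lbp passed without ZT03 replicates 1 or 3, ZT11 replicate 3, ZT19 replicates 3 or 4, or ZT23 replicates 1 or 4 (adjusted p down to 0.0271), and that of Hamp without ZT19 replicate 4 or ZT23 replicate 1 (down to 0.0222).

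Genes known to respond directly to STAT3 had 6 of 17 called for a rhythm, beside 7.61% of all genes. The 6 peaks were spread over the day. Vegfa, the gene of vascular endothelial growth factor A (1.25-fold), peaked around lights-on, at ZT 0.0355 ± 0.737 (SE, in h). Hif1a, the gene of a hypoxia-inducible factor (1.33-fold, ZT 2.73), peaked early in the light, and the kinase gene Pim3 (1.42-fold, ZT 8.31) later in the light. Bcl2l1, which encodes a survival factor (1.49-fold, ZT 12.6), and the cyclin gene Ccnd1 (1.38-fold, ZT 12.7) peaked around lights-off, and the stress gene Ier3 (2.15-fold) at ZT 15.9. Night was called higher in 1 of the 17 and lower in 3, beside 1.89% and 2.49% of all genes. Dusk was called higher in 3 and lower in 2, beside 2.06% and 1.7%. Irf1 (amplitude 0.125, adjusted p = 0.0673) and Fgl2 (0.105, adjusted p = 0.0835) were not called with all arrays. Irf1 passed without ZT15 replicate 1 (adjusted p = 0.0106), and Fgl2 without ZT07 replicate 2, ZT11 replicate 2 or ZT19 replicate 4 (adjusted p down to 0.0303).

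The protein-coding genes whose profiles over the 24 arrays correlated best with each called member are given as a description, without a test, since rhythms of the same phase correlate by construction. For Stat3 these were Nrap (r = 0.869), which encodes an anchoring protein of myofibrils, Tbk1 (0.83) and the growth factor receptor gene Igf1r (0.83). For Cebpb they were Sult1a1 (0.906), Rhobtb1 (0.847) and Timp3 (0.828). Serpina3n was closest to the complement gene C1qb (0.771), Olfr1443 (0.763) and Apod (0.759), and Lcn2 to Trappc1 (0.824), Smarca2 (0.82) and the matrix proteoglycan gene Bgn (0.819). Osmr was closest to Cntfr (0.758), Slit3 (0.758) and Aldh1a1 (0.75), Lifr to Npc1 (0.857), Acap2 (0.789) and Etfbkmt (0.775), and Il6ra to Inka2 (0.738), Pmf1 (0.733) and Klhl11 (0.718).

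Members were also compared among arrays of the same time, after the time mean had been subtracted, to see whether they were high or low on the same arrays. Of 45 pairs, 0 passed a two-sided permutation test within times after Benjamini-Hochberg adjustment, and 1 had an unadjusted p below 0.05. That pair was Cebpb and Cebpd (Pearson's r = 0.521, permutation p = 0.0287, adjusted p = 0.689). Spearman's rho was 0.408 (permutation p = 0.0849, adjusted p = 0.935). Without the 2 arrays farthest from the Cebpb median r was 0.33. Leaving out extreme arrays narrows the range of values, so this fall does not show how far the relation rested on them. For Serpina3n and Lcn2, which rose together at night, the test between arrays of the same time gave r = 0.34 and rho = 0.05 (permutation p = 0.257 and p = 0.846, adjusted p = 0.77 and 0.956, and r = 0.079 without the 2 farthest arrays).

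**Figure D5:**
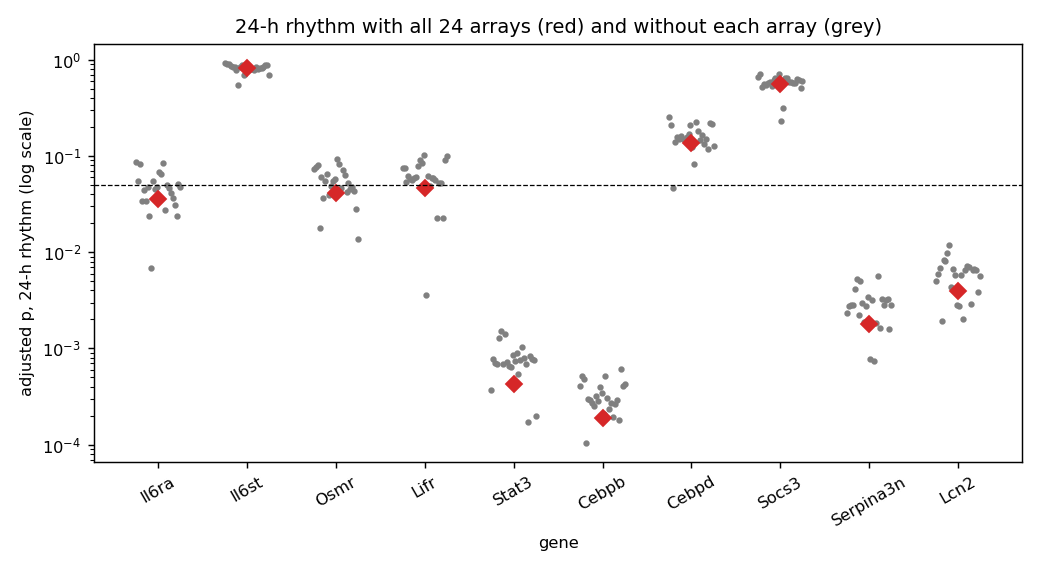
Adjusted p of the 24-h rhythm (vertical axis, log scale) for each member (horizontal axis), with all 24 arrays as red diamonds and without each single array as grey points. The dashed line is the threshold of 0.05. All points of Stat3, Cebpb, Serpina3n and Lcn2 lie below it, those of Il6ra, Osmr and Lifr lie on both sides, and of Cebpd a single point lies below it.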

How the data were processed

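Total RNA of 24 heart samples was extracted with TRIzol, and 500 ng of it was labelled with biotin for Affymetrix mouse gene arrays, per the labels' protocols. The deposited table holds 1 value per probe set and array, read here as log2. The base of the logarithm is an assumption, and higher values were taken as more RNA. In these deposited log2 values each probe set has a median of 0 (to within 5e-07), which removes its level, and a filter on dim probes could not be applied. How probe sets were summarised and background corrected, and with which software, is not given in the sources used here.

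Of 34351 probe sets, 23521 named 1 gene (22180 genes), 1814 several and 9016 none, and probe sets of a gene were averaged. Tests were moderated tests in limma 3.58.1 (R 4.3.3) over all genes and 24 arrays, called at a Benjamini-Hochberg adjusted p below 0.05. The 24-h rhythm was a cosine and a sine term, and its fold is 2 to the power of 2 amplitudes. The other tests came from the 6 time means: any difference, night (ZT15, ZT19, ZT23) against day, and dusk against dawn. Correlations used 100000 permutations within times. The scripts were tested on simulated data. Precision is limited by 4 arrays per time. Limma's p-values set a difference or fit against the residual spread of these arrays, moderated over all genes. In the 24-h fit that spread also holds any departure from the cosine.

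The members, lists and tests were chosen with earlier results of these data known. Named were all members, the called genes of each pathway list with up to 2 next by p, and the 3 closest profiles of each called member, without predicted genes. Pathway lists covered ligands, receptors, kinases and STATs, inhibitors, C/EBP factors, acute phase genes, serpin A3 genes and STAT3 targets. Lists of cell type markers covered 12 types. Some were not described in full with the members. Of all genes limma's rhythm test called 7.61%. In these lists it called 4 of 10 for fibroblasts, 3 of 10 for endothelial cells and 1 of 7 for adipocytes. It called 0 of 10 for smooth muscle and pericytes and 0 of 8 for atrial cardiomyocytes. For mesothelium it called 0 of 6 and for lymphocytes 0 of 7. At an unadjusted p below 0.05 the lists with 0 called had 5 (smooth muscle and pericytes), 4 (atrial), 0 (mesothelium) and 0 (lymphocytes).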

Additional observations from a re-analysis of the deposited data

Results flagged for a closer look

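Among 60 sets of 4 arrays, 1 per member and time, 6 had an array whose gap to its nearest neighbour took up more of the range than Dixon's critical value for 4 samples allows, where chance flags about 1 in 20. Of these, 3 were in the same array, ZT11 replicate 4. Cebpb had 0.49 there (others 0.12 to 0.17), Cebpd had 0.36 (others 0.04 to 0.06), and Socs3 had -0.11 (others -0.05 to -0.03). The others were Il6st in ZT15 replicate 1 (-0.11, others 0.00 to 0.01), Osmr in ZT03 replicate 4 (0.03, others -0.18 to -0.15) and Lcn2 in ZT19 replicate 3 (0.03, others all 0.20).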

How the results depend on the processing

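Counts of called members and of all called genes moved by at most 1.5 times under the probe set of largest SD, quantile normalization, arrays centred on their medians, protein-coding genes only, robust eBayes, array weights, the replicate block, and without the 3 arrays of lowest weight. Under these, 5 to 7 members had a 24-h rhythm, 3 to 5 any difference among times, 3 differed between night and day and 2 to 3 between dusk and dawn, and 0 of 45 correlated pairs were called where that was run. Leaving out 1 array at a time gave 4 to 7, 2 to 5, 3 to 4 and 1 to 3 members, and 1445 to 1829, 895 to 1134, 765 to 1243 and 697 to 884 of all genes. The fewest members in the rhythm test (4) came without ZT03 replicate 1, ZT03 replicate 2, ZT15 replicate 2 or ZT19 replicate 1. The fewest in the test of any difference (2) came without ZT07 replicate 4, and the fewest between dusk and dawn (1) without ZT03 replicate 1, ZT15 replicate 2 or ZT23 replicate 3. The cause was not tested. No called member changed direction.

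No clear pairing of the arrays by replicate number was seen, which does not show that there was none. After the time means were subtracted, arrays of the same number correlated with medians from -0.076 to 0.019, and 8 of 24 arrays correlated best with one of their own number. With the replicate block 5 members kept a 24-h rhythm, where Osmr (adjusted p = 0.0589) and Lifr (0.0582) did not, and 1576 of all genes were called. In the test of any difference the block gave 3 members and lost Serpina3n (0.0677). Without the 3 arrays of lowest weight Serpina3n lost that call too (0.0589) while Lifr gained it (0.0269), so the count stayed at 4. Lifr, at 0.0531 with all arrays, also passed that test with quantile normalization (0.014), protein-coding genes only (0.0477) and array weights (0.0257). The number of arrays limits the precision, and signal over background is unknown.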
